A study of Mus musculus with 9 samples.

Results

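The genes of the cytosolic ribosome were measured in mouse CD8+ T cells after culture with 1 of 3 cytokines. The set holds every gene whose platform symbol is Rpl or Rps followed by a digit, with Rpsa, Rplp0, Rplp1 and Rplp2, and without the Rps6k kinases and pseudogene symbols. That rule uses names only and gave 74 genes of the 17498 measured. They comprise 38 large subunit genes, 3 genes of the stalk of the large subunit, 26 small subunit genes and 6 genes of paralogs that replace or resemble a standard subunit. The last member by name, Rps19bp1, encodes a nucleolar protein that binds the small subunit protein Rps19 and is no ribosomal protein itself.

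Murine CD8+ T cells spent 4 days in culture without cytokine or with 10 ng/ml of IL-2, of IL-15 or of IL-21. All of them, untreated cells included, were then restimulated for 4 h with no cytokine added. Each of the 9 two-colour arrays set 1 treated sample against untreated cells, with 3 biological replicates per cytokine. The sources used here do not give the strain or age of the mice or the means of stimulation. Every value below is the deposited log2 ratio, so it describes a change against untreated cells and never a level, and the markers of CD8+ T cells cannot show from it how pure the cells were.

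Ribosomal proteins are built with ribosomal RNA into the small subunit, which reads the mRNA, and the large subunit, which joins amino acids. Their mRNAs are among the most abundant of a growing cell, and most begin with a run of pyrimidines, the TOP motif, through which the kinase mTOR controls their translation. T cells that leave rest after antigen contact enlarge and make many ribosomes, and IL-2, IL-15 and IL-21 act through receptors that share the common gamma chain.

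The direction of the ratios is not settled. Sample labels place the treated cells in Cy5 on every array, whereas the design text and a deposited list place them in Cy3 in replicates 2 and 3, so dye and replicate 1 against the others cannot be told apart. Of 36 pairs of arrays, 3 correlated under -0.3 over all probes, the lowest at -0.35, and each set replicate 1 against replicate 3. Every pair of those 2 replicates correlated below 0, also within IL-2 (-0.26), IL-15 (-0.09) and IL-21 (-0.28). Within these cytokines, replicates 2 and 3 correlated at 0.20, 0.17 and 0.23, and replicates 1 and 2 at 0.06, 0.02 and -0.03. The deposited signs were kept, with positive taken as higher in treated cells. Values with the sign of replicates 2 and 3 turned are given beside the main group results and the genes at the ends of the range, and differences between cytokines of the same replicate carry no dye effect that its arrays share.

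The threshold was an adjusted p of 0.05 over all genes by limma, in a fit without a replicate block. None of the 74 genes passed it in any of the 6 comparisons. Across all genes that threshold called 0.8% for IL-2, 0.126% for IL-15 and 0.0% for IL-21, each against untreated cells. It called 0.08% for IL-21 minus IL-2, 0.0171% for IL-21 minus IL-15 and 0.0% for IL-15 minus IL-2. At these shares, 0 of 74 is near the background. The smallest adjusted p of a member was 0.133, for Rpl14 with IL-15 (n = 3 arrays, limma). At an unadjusted p under 0.05, 4 members were higher and 7 lower with IL-2, where all genes gave 6.77% and 2.05%. With IL-15 the counts were 3 and 0, against 5.1% and 2.15%, and with IL-21 they were 0 and 6, against 2.62% and 3.43%. For IL-21 minus IL-2, 0 members were higher and 6 lower at that unadjusted p, against 1.51% and 4.46% of all genes. For IL-21 minus IL-15 these were 0 and 5, against 2.07% and 3.61%, and for IL-15 minus IL-2 they were 0 and 0, against 0.497% and 0.943%.

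**Figure D1:**
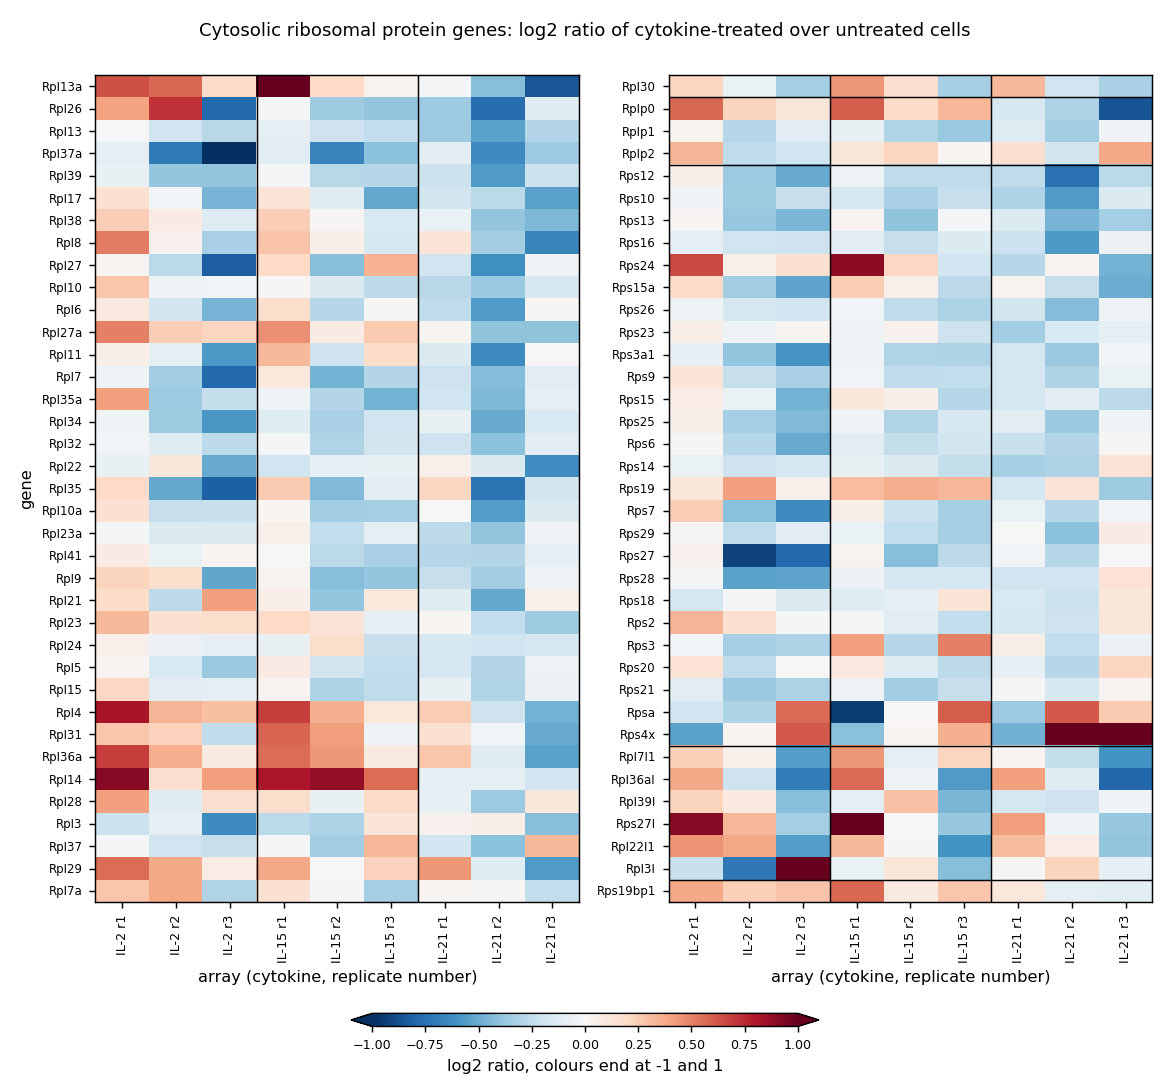
Log2 ratio of treated over untreated cells for the 74 genes (rows) on each of the 9 arrays (columns, cytokine and replicate number), with colours ending at -1 and 1. Black lines part large subunit, stalk, small subunit and paralog genes and Rps19bp1, and each block is ordered by its IL-21 mean. Most cells of the 3 IL-21 columns are blue (below 0). Above 0 lie 22, 8 and 16 genes in replicates 1, 2 and 3, with Rps4x highest at 1.73 and 1.30 in replicates 2 and 3.

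As a group the ribosomal protein genes lay slightly below untreated cells. The median log2 change of the 74 was -0.10 with IL-2, -0.10 with IL-15 and -0.18 with IL-21, where the medians of all genes were 0.05, 0.0022 and 0.0033. With IL-21, 70 of the 74 means lay below 0, against 47 with IL-2 and 51 with IL-15, and 49.3% of all genes lay below 0 with IL-21. The changes were small: 72, 73 and 73 members lay within 0.5 of 0 with IL-2, IL-15 and IL-21. Leaving out 1 replicate number moved the IL-2 median between -0.19 (without replicate 1) and -0.04 (without replicate 3), that of IL-15 between -0.18 (without 1) and -0.08 (without 3) and that of IL-21 between -0.22 (without 1) and -0.12 (without 2). With the sign of replicates 2 and 3 turned, the 3 medians became 0.15, 0.13 and 0.10, so the sign of this shift rests on how the dyes ran. No p is given for a list median, since the arrays of a replicate share their untreated cells and genes are not replicates.

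The members' median varied with the replicate as well as with the cytokine. The median of the 74 on single arrays was 0.11, -0.13 and -0.26 in replicates 1, 2 and 3 of IL-2. It was 0.03, -0.16 and -0.20 in those of IL-15, and -0.13, -0.30 and -0.11 in those of IL-21. All 3 IL-21 medians were below 0, while replicate 1 of IL-2 and of IL-15 lay above 0 and the other arrays of those cytokines below. Array medians of all genes ran from -0.04 to 0.13, and IL-2 replicate 3, with the highest, also had the widest spread, with 13.6% of its probes beyond 1 in either direction. Without that array the members' median was -0.04 for IL-2 and -0.18 for IL-21 minus IL-2, and 0 members passed in any comparison. The members' median lay below that of all genes on 7 of the 9 arrays. A member's standard deviation over the 9 arrays had a median of 0.252, against 0.324 over all genes.

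**Figure D2:**
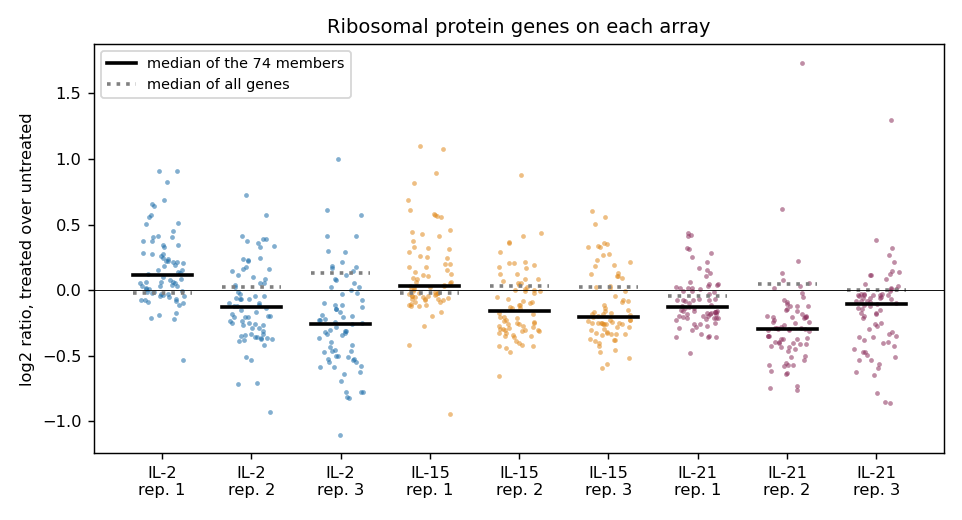
Log2 ratio of each of the 74 genes (points) on each array, with the median of the 74 as a solid line and that of all 17498 genes as a dotted line. The members' median runs from -0.30 (IL-21 replicate 2) to 0.11 (IL-2 replicate 1) and lies below 0 on every IL-21 array.

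Sign patterns over arrays show how evenly the genes shifted. Below 0 on all 3 IL-21 arrays were 35 members (47.3%), against 12.4% of all genes, and above 0 on all 3 were 0 members, against 11.5%. Below 0 on all 3 IL-2 arrays were 18 members, against 9.06% of all genes, and on all 3 IL-15 arrays 22 members, against 12.6%. Above 0 on all 3 arrays were 11 members with IL-2 and 10 with IL-15, against 15.3% and 15.1%, so those 2 shares were near the background. With the sign turned, members below 0 on all 3 arrays numbered 1 with IL-2, 1 with IL-15 and 2 with IL-21, against 19.2%, 15.7% and 20.1% of all genes. Those above 0 on all 3 then numbered 26, 17 and 17, against 12.1%, 11.2% and 13.9%. The 3 cytokines of a replicate share untreated cells, so these 3 patterns are not independent of each other.

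In the deposited signs, 9 genes were below 0 on all 9 arrays, where 0.874% of all genes were, and with the sign of replicates 2 and 3 turned this held for 1 member, Rps4x, against 3.59% of all genes. The 9 are the large subunit genes Rpl13, Rpl32, Rpl34, Rpl37a and Rpl39 and the small subunit genes Rps10, Rps16, Rps26 and Rps3a1. Rpl13 stood at -0.01, -0.20 and -0.28 with IL-2, at -0.09, -0.20 and -0.25 with IL-15 and at -0.36, -0.53 and -0.30 with IL-21. Its 3 IL-21 arrays lie below all 6 others, and its IL-21 mean of -0.40 ± 0.12 (SD, n = 3) had the smallest adjusted p of a member in that comparison, 0.608 by limma. Rpl39, whose small protein lines the exit tunnel of the ribosome, had means of -0.28, -0.19 and -0.33. No member was above 0 on all 9 arrays, against 1.5% of all genes, and 3 were with the sign turned, against 2.11%.

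The opposite end held 9 genes above 0 on all 6 arrays of IL-2 and IL-15, against 7.37% of all genes. They are, by the mean over the probes of each gene, Rpl13a, Rpl14, Rpl27a, Rpl29, Rpl36a, Rpl4, Rplp0, Rps19 and Rps19bp1. Of these, Rpl13a, Rpl14 and Rplp0 were also below 0 on all 3 IL-21 arrays, a pattern that 0.954% of all genes had. With the sign turned 11 members were above 0 on the 6 arrays, against 4.64%, and 0 members had the second pattern, against 0.0286%. The members thus spanned a range of responses within small limits, and the genes at its ends are described next by role.

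Rplp0, Rplp1 and Rplp2 encode the stalk, to which elongation factors bind. Rplp0 stood at 0.57, 0.22 and 0.12 on the IL-2 arrays, at 0.61, 0.19 and 0.33 on the IL-15 arrays and at -0.16, -0.30 and -0.86 on the IL-21 arrays. Every IL-21 array lay below every array of the other cytokines. IL-21 minus IL-2 was -0.75 ± 0.24 (SE, n = 3 per cytokine), with an adjusted p of 0.491 by limma, and IL-21 minus IL-15 was -0.82 ± 0.24 (SE), with an adjusted p of 0.477. Within replicates 1, 2 and 3 the first difference was -0.73, -0.53 and -0.98, and its adjusted p with the replicate block was 0.125. With the sign turned the 2 differences were 0.26 and 0.31. Rplp1 stayed between -0.37 and 0.03 on all 9 arrays, and Rplp2 between -0.25 and 0.38, and neither parted the cytokines.

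Rpl13a encodes a large subunit protein that, in human myeloid cells, can leave the ribosome and silence inflammatory mRNAs. It stood at 0.64, 0.58 and 0.19 with IL-2, at 1.10, 0.20 and 0.03 with IL-15 and at -0.01, -0.43 and -0.85 with IL-21. Its IL-21 arrays lay below all others, although IL-21 replicate 1 was close to 0 and IL-15 replicate 3 only just above it. IL-21 minus IL-2 was -0.90 ± 0.32 (SE), the lowest among the members, with an adjusted p of 0.634 by limma and 0.104 with the replicate block. IL-21 minus IL-15 was -0.88 ± 0.32 (SE; adjusted p 0.747, limma). Turning the sign of replicates 2 and 3 gave 0.46 and 0.13.

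Rpl13a is also the member with the most probes, 23, while 54 of the 74 genes had a single probe. The median of its probes was 0.68, 0.71 and 0.16 on the IL-2 arrays, 1.19, 0.23 and 0.37 on the IL-15 arrays and -0.01, -0.45 and -0.94 on the IL-21 arrays. On the IL-21 arrays 12, 21 and 22 of 23 probes were below 0. The probes agreed closely on some arrays, with a standard deviation over probes of 0.089 on IL-21 replicate 1, and poorly on others. On IL-15 replicate 3 they ran from -4.13 to 1.18, with a standard deviation of 1.16, and on IL-2 replicate 2 a single probe at -2.58 stood far from the rest. Probe by probe, IL-21 minus IL-2 was negative for 21 of 23 probes, with a median of -1.03, and IL-21 minus IL-15 for 20, with a median of -1.02. These probes share RNA and array and are not replicates.

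**Figure D3:**
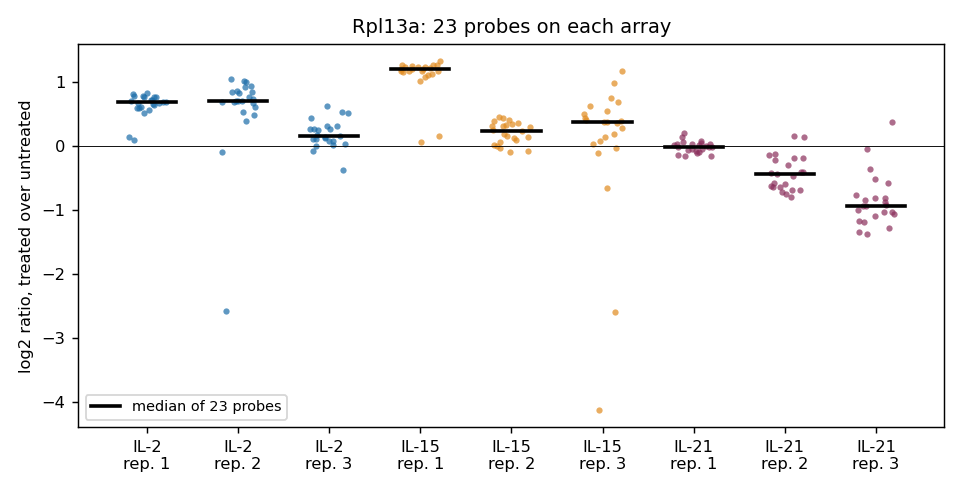
Log2 ratio of each of the 23 Rpl13a probes (points) on each array, with their median as a line. The medians run from -0.94 (IL-21 replicate 3) to 1.19 (IL-15 replicate 1), and single probes reach -2.58 on IL-2 replicate 2 and -4.13 on IL-15 replicate 3.

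Rpl14, a large subunit gene with 1 probe, had the highest mean with IL-2 and with IL-15. Its arrays gave 0.91, 0.16 and 0.41 with IL-2, 0.81, 0.88 and 0.56 with IL-15 and -0.09, -0.08 and -0.20 with IL-21. The IL-15 arrays were the tightest of the higher ones, and the IL-21 arrays did not overlap with either of the others. With IL-15 the mean was 0.75 ± 0.17 (SD, n = 3; adjusted p 0.133 by limma, 0.067 with the replicate block). A term for dye orientation moved it to 0.79 and its adjusted p to 0.0453, the only setting in which a member passed for IL-15. IL-21 minus IL-15 was -0.87 ± 0.22 (SE; adjusted p 0.340, limma) and IL-21 minus IL-2 was -0.61 ± 0.22 (SE; adjusted p 0.603). With the sign turned the IL-15 mean was -0.21.

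Rpl4, whose protein reaches into the exit tunnel, stood at 0.82, 0.34 and 0.30 with IL-2, at 0.69, 0.36 and 0.11 with IL-15 and at 0.26, -0.21 and -0.47 with IL-21. Replicate 1 was the highest within each cytokine, so the 3 IL-21 arrays lay below the IL-2 arrays but overlapped those of IL-15. Its IL-2 mean of 0.49 ± 0.29 (SD, n = 3) had an adjusted p of 0.429 by limma and was 0.06 with the sign turned. With the replicate block, which takes out what the 3 arrays of a replicate number share, that p was 0.0493 by limma. Rpl4 was then the only member called for IL-2, where all genes gave 1.95%. Against untreated cells that block also takes the spread between replicates out of the error. With the random block, which keeps that spread, 0 members were called for IL-2, with a smallest adjusted p of 0.272 (limma). Rpl27a and Rpl36a, 2 further large subunit genes, had IL-21 means below 0 and the others above it, at 0.32, 0.27 and -0.26 and of 0.38, 0.36 and -0.12. Of the 3 Rpl27a probes, 1 differed by -0.09 between IL-21 and IL-2 and the lowest by -0.86.

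**Figure D4:**
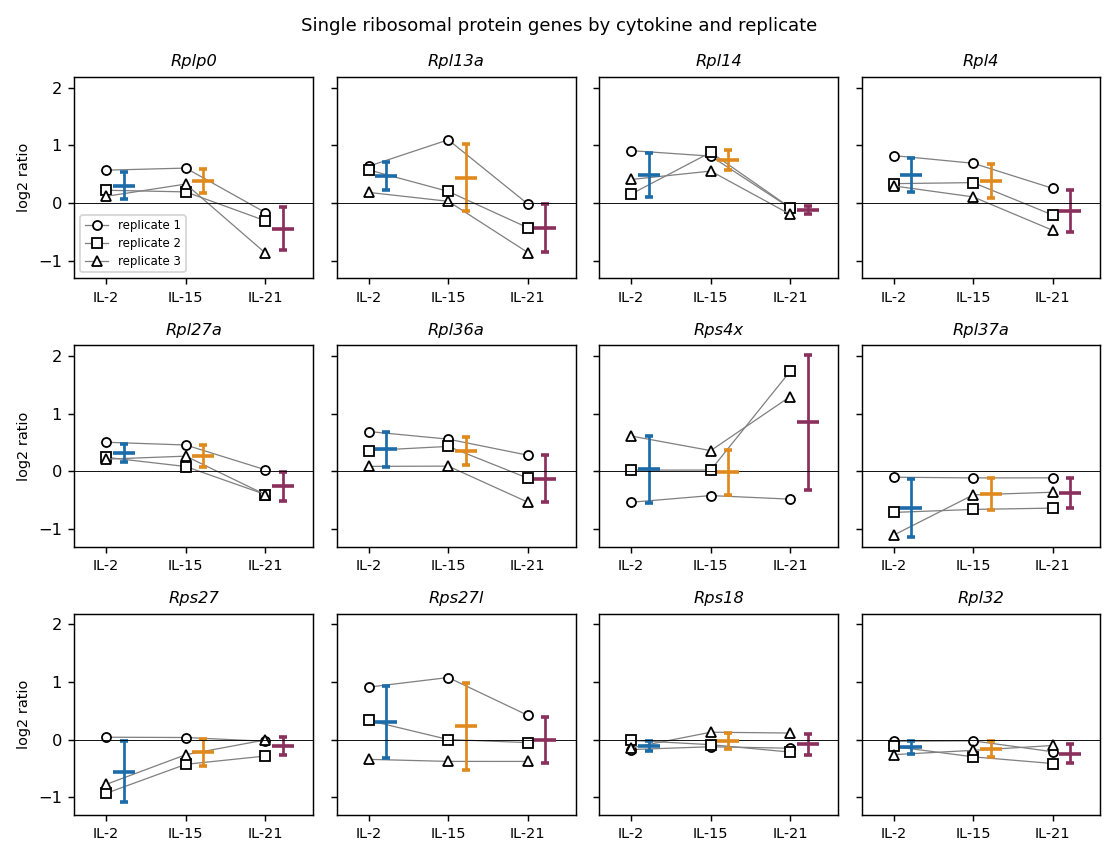
Log2 ratio by cytokine for 12 single genes, with circles, squares and triangles for replicates 1, 2 and 3, grey lines joining arrays of a replicate, and coloured bars for the mean ± SD (n = 3). Rplp0, Rpl13a and Rpl14 lie above 0 with IL-2 and IL-15 and below 0 with IL-21, Rps4x spreads from -0.48 to 1.73 with IL-21, and Rps18 and Rpl32 hardly vary.

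Counted over all members, the IL-21 arrays lay below all IL-2 arrays for 13 genes (17.6%), against 6.53% of all genes, and above them for 0, against 3.18%. The 13 are Rpl13a, Rplp0, Rpl4, Rpl14, Rpl27a, Rps24, Rpl23, Rpl10, Rps19bp1, Rpl13, Rpl41, Rps23 and Rpl24. With each array centred on its median the count was 8 (5.58% of all genes), with quantile normalization 5 (4.72%), and with the sign turned 1 (2.29%). Without IL-2 replicate 3 it was 25, against 12% of all genes. Such a count can only stay or rise when an IL-2 array is left out, and the size of the rise was not tested for a cause. IL-21 arrays lay below all IL-15 arrays for 6 genes (8.11%), against 6.24%, which is near the background, and above them for 0, against 4.43%. Within the replicates, IL-21 was below IL-2 in all 3 for 24 members (23.2% of all genes) and above it in all 3 for 4 (13.1%). It was below IL-15 in all 3 for 29 members (20.4%) and above it for 3 (16.4%). The median difference over the 74 was -0.10 for IL-21 minus IL-2 (all genes -0.05) and -0.12 for IL-21 minus IL-15 (all genes -0.0040), with 52 and 54 members below 0. Leaving out a replicate number moved the first between -0.24 (without replicate 3) and -0.03 (without replicate 2) and the second between -0.17 (without 3) and -0.06 (without 2). With the sign turned the 2 medians were -0.05 and -0.00076. IL-15 and IL-2 gave a median difference of 0.0023, 37 members on each side of 0 and 0 members without overlap, against 1.54% higher and 2.87% lower among all genes. The extremes were Rpl26 at -0.37 and Rps3 at 0.43, with Rpl27 second highest at 0.40.

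Large and small subunit genes were also counted apart. All 38 large subunit means lay below 0 with IL-21, with a median of -0.23, and 24 of the 26 small subunit means, with a median of -0.17. For IL-21 minus IL-2, 31 of 38 large subunit genes lay below 0 with a median of -0.17, against 14 of 26 and -0.0081 for the small subunit. With the sign turned the order was the reverse, with 22 of 38 and a median of -0.01 for the large and 24 of 26 and -0.12 for the small subunit, and the IL-21 medians were 0.16 and 0.07. The difference between the subunits was not tested, and single-array medians overlapped, from -0.38 to 0.19 for the large and from -0.29 to 0.01 for the small subunit.

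Among the large subunit genes, the lowest means with IL-2 and with IL-15 were both those of Rpl37a, which encodes a zinc-finger protein. It stood at -0.10, -0.71 and -1.10 with IL-2, at -0.11, -0.66 and -0.41 with IL-15 and at -0.11, -0.64 and -0.36 with IL-21. Replicate 1 lay near 0 for every cytokine and replicates 2 and 3 well below it. The IL-2 mean of -0.64 ± 0.51 (SD, n = 3) had an adjusted p of 0.296 by limma and was 0.57 with the sign turned. Rpl7 was the second lowest of them with IL-2 at -0.39 ± 0.17 (SE), and Rpl35a and Rpl9 followed Rpl37a with IL-15 at -0.27 ± 0.17 and -0.26 ± 0.17 (SE), none of them past the threshold.

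Rpl5 and Rpl11, whose proteins bind and inhibit Mdm2 when ribosome assembly fails, showed no common change. Rpl5 had means of -0.16, -0.12 and -0.17, and Rpl11 of -0.21, 0.10 and -0.25 (cytokines in the order used above). Rpl10, which joins the large subunit late, had 0.07, -0.13 and -0.27, and Rpl38, needed in mice for the translation of certain Hox mRNAs, had 0.07, 0.03 and -0.30. Rpl3, which helps to form the peptidyl transferase centre, lay at -0.31, -0.15 and -0.11. Rpl22 binds RNA and is needed in mice for the development of alpha-beta T cells. It stood at -0.16, -0.12 and -0.24, and its IL-21 arrays alone ran from -0.62 to 0.05.

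Rps4x, a small subunit gene on the X chromosome, was the most variable member, with a standard deviation of 0.80 over the 9 arrays. It gave -0.53, 0.02 and 0.61 with IL-2, -0.42, 0.02 and 0.36 with IL-15 and -0.48, 1.73 and 1.30 with IL-21. Replicate 1 was below 0 with every cytokine, and the 2 other IL-21 arrays were the highest values of any member. The IL-21 mean of 0.85 ± 1.17 (SD, n = 3) had an adjusted p of 0.829 by limma, and with the sign turned it was -1.17. In replicate 1 alone, IL-21 and IL-2 differed by 0.05.

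Rps27, a zinc-finger protein gene of the small subunit, stood at 0.04, -0.93 and -0.77 with IL-2, at 0.04, -0.43 and -0.26 with IL-15 and at -0.03, -0.28 and -0.01 with IL-21. Its 3 replicate 1 arrays lay at 0 within 0.04, and the cytokines parted only in replicates 2 and 3. The IL-2 mean of -0.55 ± 0.52 (SD, n = 3) had an adjusted p of 0.376 by limma and turned to 0.58 with the sign turned. Rps28 had a like order, with means of -0.36, -0.14 and -0.09. Rps12 had the lowest small subunit mean with IL-21, -0.42 ± 0.15 (SE; adjusted p 0.773, limma), with arrays at -0.25, -0.75 and -0.27.

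Rpsa encodes a small subunit protein also known as the precursor of the laminin receptor, and its 2 probes disagreed. The gene values were -0.19, -0.31 and 0.57 with IL-2, -0.95, -0.01 and 0.61 with IL-15 and -0.36, 0.62 and 0.26 with IL-21. On IL-21 replicate 2 one probe gave 1.61 and the other -0.38, so the gene's mean there stands for neither. Probes also parted for Rps3, which binds near the entry of the mRNA. Its 2 probes gave -0.01 and 0.83 on IL-15 replicate 1 and -0.23 and 1.23 on IL-15 replicate 3, and it is the gene with the highest IL-15 minus IL-2 difference, 0.43 ± 0.24 (SE; adjusted p 1.0, limma). Of the 20 members with several probes, 7 had probes on both sides of 0 for IL-21 minus IL-2: Rpl13a, Rpl37, Rps13, Rps18, Rps20, Rps9 and Rpsa.

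Rps6, whose protein is phosphorylated downstream of mTOR, had means of -0.26, -0.17 and -0.17. Rps19, mutated in some cases of human Diamond-Blackfan anaemia, stood at 0.12, 0.41 and 0.05 with IL-2, at 0.31, 0.36 and 0.33 with IL-15 and at -0.18, 0.13 and -0.36 with IL-21. As means of 2 probes the IL-15 arrays were tight and lay above all IL-21 arrays. IL-21 minus IL-15 was -0.47 ± 0.18 (SE; adjusted p 0.789, limma). The probes disagreed. On 1 of them the IL-15 arrays lay above those of IL-2, while the IL-21 arrays overlapped both. That probe gave -0.05, -0.02 and -0.13 with IL-2, 0.10, 0.14 and 0.03 with IL-15 and -0.17, 0.17 and -0.36 with IL-21. Rps19bp1, which binds the Rps19 protein, had means of 0.30, 0.31 and -0.03. Rps2 had the second lowest IL-15 minus IL-2 difference, -0.29 ± 0.18 (SE). Rps29 stayed at -0.12, -0.22 and -0.11.

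The least variable members were Rps18, Rpl32 and Rpl24, with standard deviations over the 9 arrays of 0.12, 0.13 and 0.13. Rps18 ran from -0.22 to 0.13, Rpl32 from -0.41 to -0.02 and Rpl24 from -0.23 to 0.18. These 3 thus moved by less than the median gene of the array, whose standard deviation was 0.324, whereas Rplp0 at 0.46 and Rpl13a at 0.58 varied more.

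Of the 6 paralogs, Rps27l, Rpl22l1 and Rpl36al fell from replicate 1 to replicate 3 within every cytokine, and Rpl7l1, Rpl3l and Rpl39l did not. Rps27l, a paralog of Rps27 that p53 induces, stood at 0.91, 0.33 and -0.34 with IL-2, at 1.07, 0.0013 and -0.38 with IL-15 and at 0.42, -0.05 and -0.38 with IL-21. Within every cytokine replicate 1 was highest and replicate 3 lowest, and the standard deviation over 9 arrays, 0.55, was the third largest of the members. Rpl22l1, which can take the place of Rpl22, ran likewise from 0.45 to -0.55 over the IL-2 arrays. Rpl36al did so from 0.38 to -0.69. Rpl7l1, a paralog of Rpl7, ran from 0.24 to -0.55 with IL-2 but stood at 0.43, -0.10 and 0.21 with IL-15. Rpl3l, the striated muscle paralog of Rpl3, spread from -0.72 to 1.00 over the IL-2 arrays. Rpl39l, the testis paralog of Rpl39, had means of -0.03, -0.08 and -0.13, and as ratios these values do not show whether either paralog was present.

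Promoter sequences were looked up because the members are known to share start-site features that the naming rule did not use. RefSeq windows of 300 bases on GRCm38.p6, with 250 bases before and 50 from the annotated start on, matched 61 of the 74 genes. A pyrimidine tract, here a C followed by at least 4 more C or T whose first C lies within 10 bases of the start on the sense strand, was found in 35 of 61 (57.4%), against 34.4% of 27025 genes. The ETS family core CCGGAAG, on either strand, was in 25 of 61 (41%), against 9.93%. The YY1-like word AAGATGGC was in 9.84%, against 3.19%, and the GC box word GGGCGG in 60.7%, against 38.2%. The TATA box word TATAAA, at 11.5% against 15.7%, and the E box word CACGTG, at 8.2% against 8.09%, were near the share of all genes. Words were counted on both strands and may overlap each other.

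The windows below run from 100 bases before the annotated start to 20 bases from it on, for the 3 genes that lay on opposite sides of 0 with IL-21 and with the other cytokines, for the lowest genes with IL-2 and for 2 genes with the ETS core. Each is given on the gene's own strand, with capitals for a tract at the start, for CCGGAAG and for AAGATGGC. They are Rplp0 at chr5:115559367-115559486 (plus strand), Rpl13a at chr7:45128726-45128845 (minus), Rpl14 at chr9:120571417-120571536 (plus), Rpl37a at chr1:72711160-72711279 (plus), Rps27 at chr3:90213629-90213748 (minus), Rpl26 at chr11:68901466-68901585 (plus) and Rpl31 at chr1:39367751-39367870 (plus).
Rplp0: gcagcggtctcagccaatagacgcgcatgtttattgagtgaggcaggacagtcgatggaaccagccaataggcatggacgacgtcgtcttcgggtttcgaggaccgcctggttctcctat
Rpl13a: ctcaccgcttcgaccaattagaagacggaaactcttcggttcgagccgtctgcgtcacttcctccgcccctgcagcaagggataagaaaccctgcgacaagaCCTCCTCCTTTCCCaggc
Rpl14: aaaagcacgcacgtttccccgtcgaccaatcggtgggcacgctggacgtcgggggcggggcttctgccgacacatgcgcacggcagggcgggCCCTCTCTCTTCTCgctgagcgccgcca
Rpl37a: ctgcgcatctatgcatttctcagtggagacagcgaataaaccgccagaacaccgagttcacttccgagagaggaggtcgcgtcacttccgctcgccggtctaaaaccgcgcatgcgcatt
Rps27: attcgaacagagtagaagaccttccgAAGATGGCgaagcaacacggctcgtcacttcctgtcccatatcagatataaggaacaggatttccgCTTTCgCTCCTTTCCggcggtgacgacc
Rpl26: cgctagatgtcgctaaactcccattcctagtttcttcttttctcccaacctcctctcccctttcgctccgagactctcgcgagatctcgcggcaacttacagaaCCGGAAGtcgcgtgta
Rpl31: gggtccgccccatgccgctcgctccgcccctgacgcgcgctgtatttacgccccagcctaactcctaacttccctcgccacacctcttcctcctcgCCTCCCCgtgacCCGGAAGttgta

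Rpl13a, Rpl14 and Rps27 hold a tract at the annotated start, Rpl31 holds a tract and the ETS core, and Rpl26 the ETS core alone. Rplp0 and Rpl37a hold no tract by that rule and no ETS core in the printed window. The rule looks only within 10 bases of the annotated start, and both windows hold runs of C and T further away. Genes on both ends of the range thus occur with and without a tract at the annotated start. Over the 61 genes, the median of IL-21 minus IL-2 was -0.13 for the 35 with a tract and -0.05 for the 26 without, and -0.05 for the 25 with the ETS core and -0.15 for the 36 without. A match is a count of letters and does not show that a factor binds.

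Genes that make or use ribosomes were compared by their counts. Against untreated cells, none of the 49 measured ribosome biogenesis factors, 33 subunits of RNA polymerases I and III, 25 translation initiation factors, 30 regulators of ribosome production and 77 mitochondrial ribosomal protein genes was called with any cytokine in the fit without the block. Of the 23 other genes with TOP mRNAs, 1 was called. Vim, the intermediate filament gene, stood at 1.24, 1.30 and 0.92 on the IL-2 arrays, at 1.14, 0.64 and 0.26 on the IL-15 arrays and at -0.30, -0.19 and -0.58 on the IL-21 arrays. It rose with IL-2, by 1.16 ± 0.17 (SE, n = 3; adjusted p 0.027, limma), and its mean was -0.33 with the sign turned. With the replicate block, for IL-2, the biogenesis factors Bop1 (-0.55, adjusted p 0.0404) and Rrp12 (-0.67, adjusted p 0.0384) passed as lower, and the mitochondrial Mrpl18 (0.87, adjusted p 0.0294) and Eif4ebp1 (0.74, adjusted p 0.0404), which encodes an inhibitor of translation initiation under mTOR, as higher. Vim then also passed as lower for IL-21 minus IL-2 (-1.51, adjusted p 0.0242). These 4 further genes were named after their values were seen. Their p-values come from a block that leaves the spread between replicates out of the error against untreated cells.

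The biogenesis factors had medians of -0.20, 0.01 and -0.18 with IL-2, IL-15 and IL-21, and 42, 23 and 40 of the 49 lay below 0. Initiation factors stood at 0.06, 0.09 and -0.12, the other TOP genes at 0.04, 0.11 and -0.12 and the polymerase subunits at -0.01, 0.04 and -0.09. The mitochondrial ribosomal protein genes, named by the same kind of rule, had medians of 0.15, 0.25 and -0.02. On single arrays their median ran from -0.29 (IL-21 replicate 3) to 0.57 (IL-15 replicate 1), a wider range than the -0.30 to 0.11 of the cytosolic genes. In replicate 1 the 3 mitochondrial medians were 0.39, 0.57 and 0.25, all above the cytosolic ones of 0.11, 0.03 and -0.13. Apart from the regulators, the lists had their highest array median in replicate 1. For IL-21 minus IL-15 the median was -0.26 for the mitochondrial genes, -0.22 for biogenesis factors and -0.21 for initiation factors and other TOP genes. It was -0.08 for polymerase subunits and -0.0089 for regulators, against -0.12 for the cytosolic genes. IL-21 minus IL-2 gave -0.19, 0.02, -0.12, -0.11, -0.02 and -0.03 in that order, against -0.10. A lower median with IL-21 was thus not particular to the cytosolic genes.

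**Figure D5:**
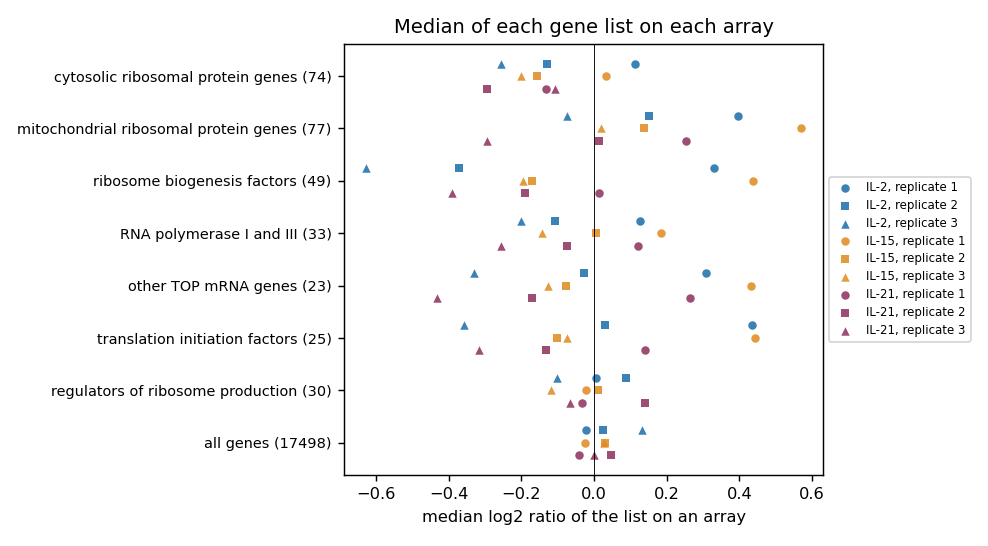
Median log2 ratio of each gene list (rows, number of genes in brackets) on each array, with colour for the cytokine and circles, squares and triangles for replicates 1, 2 and 3. Circles lie to the right of triangles in most lists, and the cytosolic ribosomal protein genes span -0.30 to 0.11 where the mitochondrial ones span -0.29 to 0.57.

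Lists that mark cells were counted beside these values. No gene was called among 9 CD8+ T cell identity, 4 CD4+ T cell, 7 B cell, 9 myeloid and dendritic cell and 5 erythroid markers in any of the 6 comparisons. Their medians on single arrays ran from -0.38 to 0.47, -0.15 to 0.23, -0.22 to 0.33, -0.30 to 0.14 and -0.29 to 0.26. In these bulk samples, fewer cells of a type and less RNA per cell cannot be told apart, and the part of either in the members' values was not tested.

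The genes whose 9 array values ran most like the members' median profile, by Pearson's r over the 9 arrays as a description, were Hnrnpab at 0.973, Sf3a3 at 0.957, Nmt2 at 0.937, Rnpc3 at 0.934 and Ptma at 0.931. Hnrnpab, an RNA-binding protein gene, stood at 0.78, -0.17 and -0.52 with IL-2, at 0.76, -0.17 and -0.29 with IL-15 and at -0.08, -0.64 and -0.19 with IL-21. Its values spread more widely than the members' median, in the same order of arrays within IL-2 and IL-15. The 9 points share untreated cells within a replicate and include the difference between replicate 1 and the others.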

How the data were processed

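RNA of cytokine-treated and untreated CD8+ T cells was amplified, labelled by amino allyl coupling and hybridised to 9 two-colour arrays, per the labels' protocols. The table deposited by the authors holds 1 signed value, taken as a log2 ratio, per probe and array for 36547 probes. A natural log cannot be told apart from it, and every size would then be too small by 1 factor. The sources used here give neither the scanner nor the background correction or the normalization. Intensities were not used, and dim probes stayed in. Arrays were grouped by the sample titles.

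Probes were named through the platform annotation: 26885 had 1 gene symbol, 203 several and 9418 none in the table used, and 41 probes of viral controls were left out. An Entrez ID matched for 26774 probes, and 0 symbols changed. Probes of a gene were averaged, which gave 17498 genes. The members have 121 probes, 54 of them with a single probe. Rpl12, Rpl19 and Rpl36 were left out because their probe lists a further symbol. Probes of ribosomal protein genes may also bind RNA of processed pseudogenes.

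The test was that of limma 3.58.1 (R 4.3.3; lmFit, contrasts.fit, eBayes), with 1 coefficient per cytokine over all 9 arrays without block or dye term, in 6 comparisons. Two-sided p-values were adjusted after Benjamini and Hochberg over the 17498 genes, with a threshold of 0.05. The code was tested on simulated data. Deviations from the cytokine means correlated between arrays of the same replicate number at 0.152 to 0.647 in all 9 pairs. Between different numbers they ran from -0.576 to 0.244. The numbers were taken to pair the samples, which the main fit does not use. The smallest adjusted p of a member for IL-21 minus IL-2 was 0.491 in the main fit of limma. It was 0.103 with the fixed and 0.0934 with the random block. For IL-21 minus IL-15 these were 0.340, 0.134 and 0.0799. Blocked values are printed where they change a call, and for some members at the ends of the range. For a cytokine against untreated cells, the fixed block leaves the spread between replicates out of the error. Its p-values there do not measure that spread.

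Named are all members past the threshold (none), the 3 highest and 3 lowest of each comparison, a fixed set of 24, the 3 most and 3 least variable, called genes of the other lists and the 5 genes most like the members' median. Other names were chosen after their values were seen. The members, the lists and the named genes were chosen with earlier results of these data known. The number of arrays, 3 per cytokine, limits the precision.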

Additional observations from a re-analysis of the deposited data

Results flagged for a closer look

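In the deposited signs, for 3 genes every IL-2 and IL-15 array lay on one side of 0 and every IL-21 array on the other. Rpl13a differed by -0.90 between IL-21 and IL-2 and by -0.88 between IL-21 and IL-15. For Rpl14 these differences were -0.61 and -0.87, and for Rplp0 they were -0.75 and -0.82. Among all genes, 0.954% had this pattern. The differences themselves were tested in limma, and none passed, with adjusted p-values from 0.340 to 0.747. With the sign of replicates 2 and 3 turned the differences were 0.46 and 0.13 for Rpl13a, -0.05 and 0.27 for Rpl14 and 0.26 and 0.31 for Rplp0, and 0.0286% of all genes had the pattern, none of them a member.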

How the results depend on the processing

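Each result was recomputed with the replicate number as a fixed or random block, with a dye term, with the sign of replicates 2 and 3 turned, with arrays centred on their median, with quantile normalization, with probe medians, at probe level and without each replicate. Members called went from 0 to 1 in 2 settings: for IL-2 with the replicate block (Rpl4, 0.49, adjusted p 0.0493) and for IL-15 with a dye term (Rpl14, 0.79, adjusted p 0.0453). The replicate block on centred arrays, a setting added after values were seen, gave 0 called members for IL-2. The smallest adjusted p of a member was then 0.0568 (limma). Leaving out a replicate gave 0 called members in every comparison and medians from -0.19 to -0.04 for IL-2, -0.18 to -0.08 for IL-15, -0.22 to -0.12 for IL-21, -0.24 to -0.03 for IL-21 minus IL-2 and -0.17 to -0.06 for IL-21 minus IL-15. With the sign turned, the members' medians were 0.15 for IL-2, 0.13 for IL-15 and 0.10 for IL-21. For IL-21 minus IL-2 the turned median was -0.05 (all genes 0.02), and for IL-21 minus IL-15 it was -0.00076 (all genes -0.02). Below 0 on all IL-21 arrays were then 2 members. The 13 genes whose IL-21 arrays lay below all IL-2 arrays became 8 with centring, 5 with quantile normalization, 1 with the sign turned and 25 without IL-2 replicate 3. Without replicate 1, 2 or 3 the count of such genes was 17 (23%), 16 (21.6%) and 33 (44.6%), against 18.6%, 13.7% and 19.3% of all genes. Members below 0 on the remaining IL-21 arrays then numbered 52, 37 and 48, against 26.3%, 21.7% and 26.1%. In these settings fewer arrays have to agree. The cause of the other changes was not tested. For named members, 1961 of 2076 alternative values moved by less than the spread between replicates, 113 moved by more and 2 gained a call, as above. Many of the 1961 could not move. Either block leaves every log2 change as it was, and the dye term leaves every difference between cytokines. Leaving out IL-2 replicate 3 keeps each value without IL-2, and the probe median keeps each gene with 1 probe. The count is thus no measure of how stable the values are. Over all 17498 genes, calls in the 5 comparisons other than IL-15 minus IL-2 (IL-2, IL-15, IL-21, IL-21 minus IL-2, IL-21 minus IL-15) were 140, 22, 0, 14 and 3. They became 342, 122, 23, 92 and 32 with the replicate block, 109, 29, 0, 201 and 127 with the random block, and 284, 170, 19, 90 and 39 with a dye term. Quantile normalization gave 19, 27, 0, 1 and 1, the probe level 174, 12, 0, 4 and 0, and the turned sign 0 in each. Centring gave 103, 29, 1, 11 and 5. Without IL-2 replicate 3 the counts were 6, 16, 0, 0 and 1. Without replicate 1 limma called 69 genes for IL-2 and 0 elsewhere, and without replicate 2 or 3 it called 0 genes. IL-15 minus IL-2 gave 0 genes in each of these settings.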
